A study of Rattus norvegicus with 9 samples.

Results

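Whole-brain RNA of 3 male rats homozygous for a deletion in Lrap, a long non-coding RNA gene, was compared with that of 3 male rats heterozygous for the same deletion. These 6 samples were chosen by genotype label from the 9 in the series, and the comparison leaves out the 3 purchased wild-type Wistar rats. In both genotypes CRISPR/Cas9 had removed 618 bp of Lrap from the genome (allele Crl:WI-Lrapem1Geh). Homozygotes carried the deletion on both alleles and heterozygotes kept 1 intact allele, so every rat carried the deletion at least once. The rats were alcohol-naive and untreated, and the sources used here give neither age nor litter. Whole brain mixes all regions and cell types, so fewer cells of a type and less RNA per cell cannot be told apart.

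Long non-coding RNAs are transcripts without a recognised protein product. Some act on neighbouring genes on the same chromosome, some act on distant genes, and some bind proteins that process other RNAs, including splicing factors. Deleting a stretch of such a gene can remove the RNA, shorten it or alter its splicing. Levels of a gene and the shares of its isoforms (alternative transcripts of 1 gene) are therefore separate readouts, and both were compared across annotated genes.

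The 3 homozygous libraries held between 27489383 and 46852368 expected counts, and the 3 heterozygous libraries between 39804529 and 46975919. An expected count is an estimated number of reads per locus or isoform, and levels below are CPM, counts scaled to a common library total, with TMM-adjusted library sizes. Mitochondrially encoded loci took 16.0 ± 1.06% of counts in homozygotes and 22.2 ± 6.54% in heterozygotes (SD, n = 3 each, two-sided exact permutation p = 0.3). With 3 rats against 3, the smallest p that test allows is 0.1. The spike-in RNAs added to the libraries did not have the same makeup in both genotypes. Their most abundant sequence took 8.41, 8.48 and 8.21% of spike-in counts in homozygous rats 1 to 3, against 27.9, 28.8 and 27.8% in heterozygous rats 1 to 3. The groups were far apart and tight within each genotype, so any difference in library handling that follows this pattern cannot be told apart from genotype in any result below.

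Lrap itself was compared first. The Lrap locus spans 39008385 to 39023973 of chromosome 12 (rn6, minus strand) and overlaps a locus on the other strand. Its level was 4.61, 3.06 and 3.91 CPM in homozygous rats, against 4.31, 3.71 and 4.05 CPM in heterozygous rats. The ranges overlapped, and the log2 fold change (homozygous minus heterozygous, as throughout) was -0.07 ± 0.20 (SE), with an adjusted p of 1.00 in edgeR's quasi-likelihood test. On deposited TPM the locus measured 0.13, 0.1 and 0.12 in homozygous rats, against 0.17, 0.23 and 0.15 in heterozygous rats, which did not overlap (two-sided exact permutation p = 0.1). Total output of the locus therefore did not differ detectably on counts, while on TPM every homozygote was lower, on a scale where annotated genes at large were lower too. The homozygous mean TPM of Lrap was 63.6% of the heterozygous mean, and the median log2 TPM ratio of 10029 annotated genes was -0.33. Whether Lrap went beyond that general shift was not tested.

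The assembly holds 2 Lrap isoforms, and they differ at the deleted stretch. MSTRG.24458.1 skips 39015894 to 39016511, which are 618 bp like the deletion, and so holds 0 bases of that stretch. MSTRG.24458.2 runs through it and holds all 618. This second isoform measured 0.252, 0.373 and 0.385 CPM in homozygous rats, against 0.954, 0.993 and 1.06 CPM in heterozygous rats. Every homozygote lay below every heterozygote, and the homozygous mean was 33.6% of the heterozygous mean. The log2 fold change was -1.53 ± 0.30, with an unadjusted p of 0.00148, but an adjusted p of 0.696 over all 58768 isoforms tested, so it did not pass. The gapped isoform measured 4.37, 2.68 and 3.54 CPM in homozygous rats, against 3.34, 2.76 and 3.00 CPM in heterozygous rats, and these ranges overlapped.

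Expressed as a share of the locus, the deposited isoform percentage of MSTRG.24458.2 was 9.89, 21.8 and 18.2% in homozygous rats, against 36.8, 42.2 and 42.0% in heterozygous rats. The groups did not overlap (means 16.6 ± 6.10% and 40.4 ± 3.08%, two-sided exact permutation p = 0.1). The usage test for the locus gave an adjusted p of 0.11 (edgeR's diffSpliceDGE, Simes method over isoforms), which ranked 171 among 9343 loci. The counts assigned to MSTRG.24458.2 in homozygotes were 5.54, 16.6 and 15.9, against 45.8, 49.6 and 42.3 in heterozygotes. Expected counts divide reads that fit both isoforms, and whether the homozygous counts include reads from the deleted stretch itself was not tested, since reads were not used here.

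**Figure D1:**
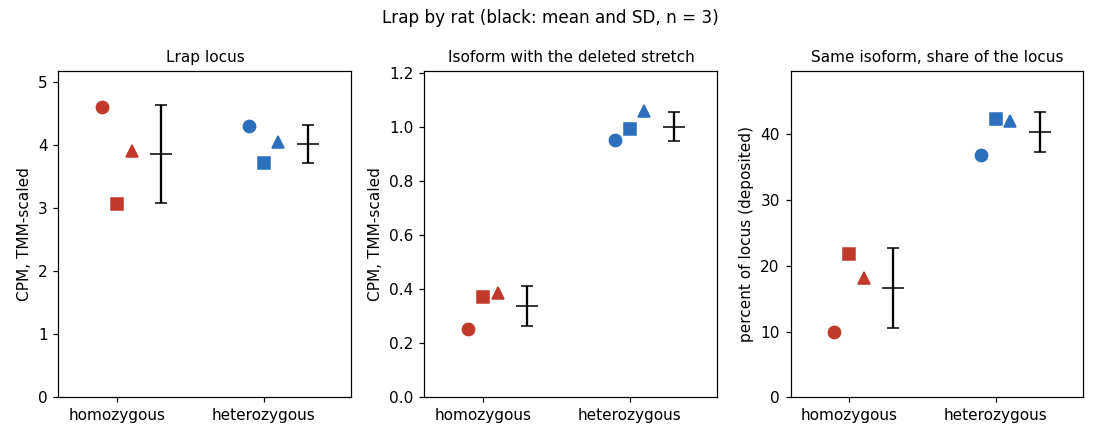
CPM of the Lrap locus (left), CPM of the isoform that holds the deleted stretch (middle) and its deposited percentage of the locus (right), each point 1 rat, homozygous left and heterozygous right in each panel, with mean and SD in black (n = 3). The locus overlaps between genotypes, while the isoform holding the stretch sits at 0.252 to 0.385 CPM in homozygotes and 0.954 to 1.06 CPM in heterozygotes.

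The genes around Lrap were then examined, since some long non-coding RNAs act on their neighbours. The 6 nearest annotated genes tested were Orai1 (the pore subunit of store-operated calcium entry), Morn3, Kdm2b (a histone demethylase), Tmem120b, Rhof (a small GTPase) and AABR07036331.2. Orai1 had 2.37, 1.52 and 1.85 CPM in homozygous rats, against 1.27, 1.22 and 1.97 CPM in heterozygous rats. Its ranges overlapped, and its log2 fold change of 0.35 ± 0.27 was the largest in size of the 6. Kdm2b differed by 0.14 ± 0.17, Rhof by 0.09 ± 0.14, Tmem120b by 0.02 ± 0.22, Morn3 by -0.22 ± 0.29 and AABR07036331.2 by -0.11 ± 0.17, and none of the 6 passed the test (edgeR, adjusted p 1.00 each). Tmem120b and Morn3 changed sign when certain rats were left out. Of 43 annotated genes tested within 1000 kb of Lrap, 0 passed and 0 had an unadjusted p under 0.05.

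Across the genome, few genes differed between homozygous and heterozygous brains. Of 35771 loci tested, 2 passed an adjusted p of 0.05, a background of 0.00559% of loci, and neither carries a gene name. The pair splits into 1 higher (0.0028%) and 1 lower (0.0028%) in homozygotes, and 1077 loci (3.01%) had an unadjusted p under 0.05. Of the 15016 annotated genes, 0 passed (0.0%), with a smallest adjusted p of 0.303. An unadjusted p under 0.05 was reached by 432 annotated genes (2.88%), 339 of them higher (2.26%) and 93 lower (0.619%) in homozygotes. This split turned to 126 higher and 184 lower without heterozygous rat 1. It was 72 and 58 with all 9 libraries in the fit and 361 and 262 when only loci with a gene name were fitted. The 2.88% is below the share of 0.05 that such a threshold would pass with no difference at all, so these genes are not calls. Other tools called more: DESeq2 called 12 loci, 8 of them annotated, and limma-voom called 4, 1 of them annotated.

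Both called loci lie on the minus strand of chromosome 7 and have 1 isoform each. The locus at 35623485 to 35626547 measured 1.44, 1.30 and 1.68 CPM in homozygous rats and was at 0 in all 3 heterozygous rats. Against a floor of 3 counts over the heterozygous group it was at least 68.0-fold higher in homozygotes (edgeR adjusted p 0.00324). The locus at 35719751 to 35722833 was at 0 in all 3 homozygous rats, against 1.31, 1.84 and 1.35 CPM in heterozygous rats, and was at least 55.3-fold lower in homozygotes against the same kind of floor (edgeR adjusted p 0.00324). The pair is 93203 bp apart, and their lengths of 3063 and 3083 bp differ by 20 bp. Since each was silent in the other genotype, their summed level per rat equals the values above, and the sums overlapped between genotypes (two-sided exact permutation p = 0.8). Both calls are therefore uncertain as differences in output: whether reads were assigned between near-identical copies was not tested, because no rn6 genome was used here.

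The annotated genes of smallest p are described next. None passed in edgeR, while DESeq2 called LOC103694381, LOC100911625, Zfp14, Dgcr2, AABR07005535.2, LOC102546354 and Gh1 among them (adjusted p 0.000598 to 0.0317), and limma-voom called LOC103694381 (adjusted p 0.0125). Among those higher in homozygotes, LOC103694381 (chromosome 20, 5184515 to 5186503) measured 0.338, 0.353 and 0.383 CPM in homozygous rats and 0 in all 3 heterozygous rats. That is 40 counts against 0, or at least 16.7-fold higher against a floor of 3 counts over the group, with an adjusted p of 0.303 (edgeR). LOC100911625 (chromosome 9, 20251521 to 20260505) measured 7.99, 6.26 and 8.12 CPM in homozygotes, against 3.52, 3.00 and 3.80 CPM in heterozygotes. All homozygotes were above all heterozygotes, by 1.12 ± 0.18 on the log2 scale (edgeR adjusted p 0.303). LOC100911625 overlaps a locus on the other strand, and the sources used here do not say whether counting used the strand.

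Zfp14, a zinc finger gene, measured 7.95, 8.60 and 8.94 CPM in homozygotes, against 3.93, 4.01 and 5.55 CPM in heterozygotes (log2 fold change 0.92 ± 0.18, edgeR adjusted p 0.910). The locus annotated as Dgcr2 (chromosome 6, 138351291 to 138401621) measured 32.3, 28.0 and 27.0 CPM in homozygotes, against 20.5, 16.8 and 17.5 CPM in heterozygotes (0.67 ± 0.14). Plekha4, a phosphoinositide-binding protein, measured 1.27, 1.81 and 1.20 CPM in homozygotes, against 0.437, 0.672 and 0.699 CPM in heterozygotes (1.25 ± 0.30). In all 3 the genotypes did not overlap. Such separation was common, since 7.25% of annotated genes had all homozygotes above all heterozygotes and 1.82% had all below.

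Nudt8 (a Nudix hydrolase) had a log2 fold change of 0.73 ± 0.20 and Mboat7l1 one of 0.55 ± 0.13. Rn7sl1, which encodes the 7SL RNA of the protein-targeting signal recognition particle, was the most abundant of this group, with 57622, 49022 and 46914 CPM in homozygous rats, against 33171, 30333 and 42596 CPM in heterozygous rats. Its log2 fold change was 0.53 ± 0.13, and a second locus, AABR07064724.4, had identical values and is not counted separately. Rn7sl1 took 4.75 ± 0.503% of all counts in homozygotes and 3.74 ± 0.225% in heterozygotes. AABR07005535.2, AABR07070043.1 and AABR07029907.3 complete this set, at log2 fold changes of 2.44 ± 0.51, 0.66 ± 0.15 and 0.52 ± 0.13.

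Among those lower in homozygotes, LOC102546354 (chromosome 1, 88347774 to 88367504) measured 3.13, 1.87 and 2.25 CPM in homozygotes, against 6.70, 6.97 and 5.15 CPM in heterozygotes. All homozygotes were below all heterozygotes (log2 fold change -1.39 ± 0.23, edgeR adjusted p 0.303). Its span of 19731 bp equals that of Zfp14 on chromosome 19, which differed in the other direction. Summed over both loci the level was 11.1, 10.5 and 11.2 CPM in homozygotes, against 10.6, 10.98 and 10.7 CPM in heterozygotes, and these ranges overlapped (two-sided exact permutation p = 0.7). Both differences are therefore uncertain, and whether reads were divided between similar copies was not tested. Gh1, the growth hormone made by the anterior pituitary, measured 0.0423, 0 and 0 CPM in homozygotes, against 1.89, 0.356 and 0.724 CPM in heterozygotes. That is 1 count against 138, a ratio of 110 in favour of heterozygotes with an exact 95% interval of 19.4 to 4383, which covers counting error only. Its edgeR adjusted p was 0.303, and it was called with DESeq2 (0.00756), with the replicate block (0.0056) and without heterozygous rat 2 (0.0308). Leaving out heterozygous rats 2 and 3 keeps only heterozygous rat 1, the highest for Gh1, and gave a log2 fold change of -7.25. Prl, the prolactin gene, another pituitary hormone, measured 0, 0.02 and 0 CPM in homozygotes, against 0.65, 0.06 and 0.15 CPM in heterozygotes. Prl was too low to pass the count filter and was not tested. Tshb and Cga, also pituitary hormone genes, overlapped between the genotypes. Of the 7 anterior pituitary genes tested, Gh1 included, 4 were above 0 and 3 below. Their median was 0.03, and its sign changed in 3 of the alternatives, so the list as a whole did not follow Gh1.

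Chrnb4, a nicotinic acetylcholine receptor subunit, measured 0.423, 0.529 and 0.719 CPM in homozygotes, against 0.729, 3.04 and 2.65 CPM in heterozygotes (-1.91 ± 0.50). Heterozygous rat 1 lay close to the homozygotes, and rats 2 and 3 were about equally high. Tcf7l2, a Wnt pathway transcription factor and thalamic marker, measured 9.85, 11.9 and 11.6 CPM in homozygotes, against 16.9, 14.1 and 15.5 CPM in heterozygotes (-0.48 ± 0.14). Emb, a cell adhesion glycoprotein, differed by -0.71 ± 0.22, Asrgl1, an asparaginase, by -0.62 ± 0.19, Chodl by -1.60 ± 0.48 and Cyp4f37, a cytochrome P450, by -1.60 ± 0.41. Ybx1-ps3, LOC102554232, AC119459.5 and Rn50_X_0746.3 complete the set, with log2 fold changes between -1.12 ± 0.36 and -0.76 ± 0.19.

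**Figure D2:**
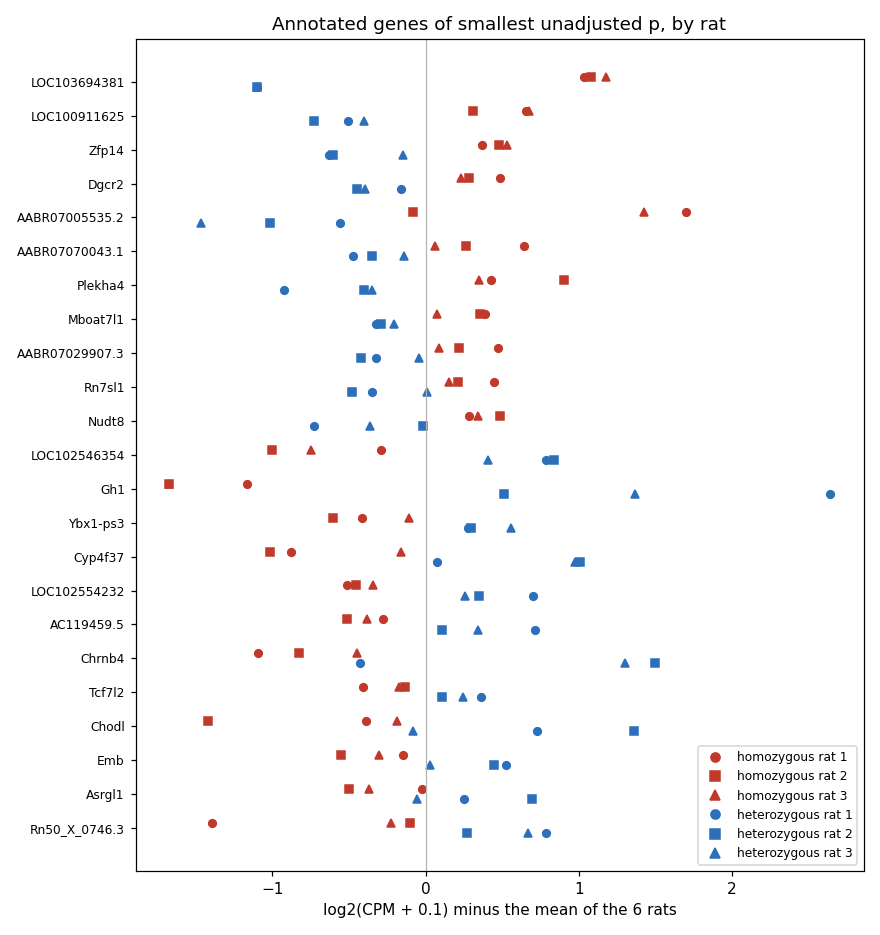
log2(CPM + 0.1) minus the mean of the 6 rats for the annotated genes of smallest unadjusted p, 1 row a gene and 1 point a rat, homozygous in red above heterozygous in blue. LOC103694381 and Gh1 have rats at or near 0 in 1 genotype, and the heterozygous Chrnb4 values split between rat 1 and rats 2 and 3.

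Marker genes of several regions and tissues varied from rat to rat. Cerebellar genes were very low in homozygous rat 2. Gabra6, the GABA-A receptor subunit of cerebellar granule cells, measured 63.5, 0.55 and 54.1 CPM in homozygous rats, against 14.9, 23.2 and 33.3 CPM in heterozygous rats. The Purkinje cell gene Pcp2 followed the same order, at 29.8, 0.19 and 16.3 CPM in homozygotes, against 4.74, 7.64 and 13.9 CPM in heterozygotes. Of 15 tested cerebellar genes all 15 had a positive fold change, and 0 passed. Their median was 0.49, became 1.02 without homozygous rat 2 and turned to -0.08 without homozygous rat 1, and it was -0.35 in limma-voom and slightly negative with the replicate block.

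Pineal genes were high in heterozygous rats 2 and 3. Tph1, the enzyme that starts serotonin synthesis in the pineal gland, measured 0.25, 0.18 and 6.30 CPM in homozygous rats, against 1.04, 88.9 and 88.2 CPM in heterozygous rats. Crx, a pineal and retinal transcription factor, was at 0 in all 3 homozygotes, against 0.02, 0.79 and 0.85 CPM in heterozygotes. Only 3 of the 10 pineal genes in the assembly passed the filter on low counts, so no median or count over them is given. Without heterozygous rat 1, 20 loci were called in place of 2, and 13 of them were annotated, including Crx, Pdc, Aipl1, Pde6c, Gngt2 and Rom1 of the pineal and photoreceptor cascade, with Chrnb4 among them. Their part in the other results was not tested, apart from the values given beside each.

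Blood genes were highest in heterozygous rat 3. S100a9, a neutrophil protein, measured 0.549, 0.419 and 0.623 CPM in homozygotes, against 0.5, 0.593 and 4.65 CPM in heterozygotes. The median of the 5 tested blood genes was -0.82, and turned to 0.24 without heterozygous rat 3. Meningeal Col1a1, a fibrous collagen, measured 50.9, 26.3 and 31.8 CPM in homozygotes, against 40.3, 32.7 and 114 CPM in heterozygotes, and was likewise highest in heterozygous rat 3.

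**Figure D3:**
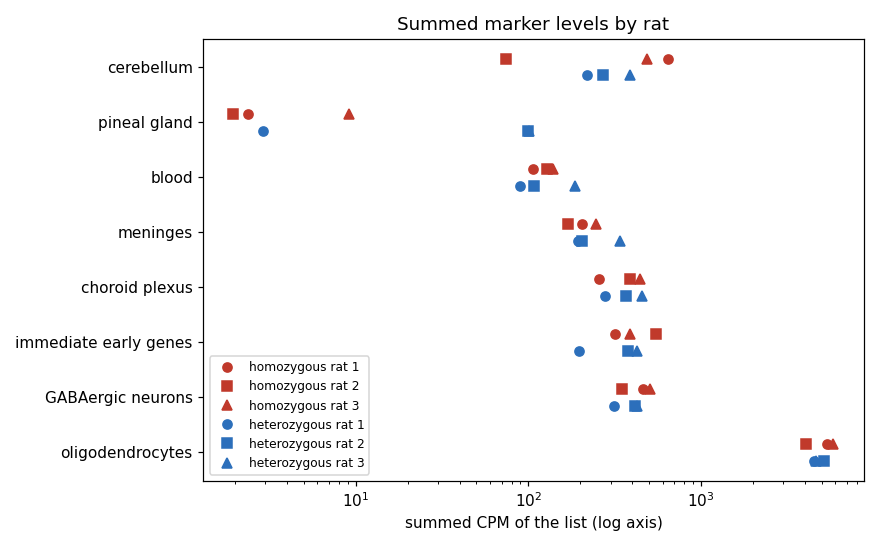
Summed CPM of 8 gene lists by rat on a log axis, homozygous (red) above heterozygous (blue). The cerebellum sum is lowest in homozygous rat 2 (74.6), and the pineal row is highest in heterozygous rats 2 and 3, where most of it is Tph1.

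Gene lists for cell types, regions, transmitter systems and cell processes were then described by counts and medians beside those of all annotated genes. Of all annotated genes tested, 68.0% had a fold change above 0 and their median was 0.07. That median was 0.00057 without heterozygous rat 1, 0.01 when only loci with a gene name were fitted and 0.24 without heterozygous rats 2 and 3, so the level that lists are set against moves with which heterozygotes are included. Of 538 different list members tested, 0 passed, and 4.65% had an unadjusted p under 0.05, 19 higher and 6 lower in homozygotes, beside 2.88% of all annotated genes (339 higher and 93 lower). Of the 38 lists with 5 or more tested genes, 31 had a median above 0 and 7 below, with medians from -0.82 to 0.49. The positive lean of most lists is therefore shared with annotated genes at large.

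Interneuron genes leaned positive on counts. All 12 tested GABAergic genes had positive values (median 0.29, but -0.10 on deposited TPM, over 8 genes). Like the cerebellar genes, Pvalb and Calb2 were lowest in homozygous rat 2. They measured 61.5, 16.9 and 55.2 CPM, and 71.9, 28.9 and 70.3 CPM, in homozygous rats 1 to 3. Vip, in contrast, was highest in homozygous rat 2. The list median was 0.34 without homozygous rat 2, 0.12 without homozygous rat 3 and 0.14 without heterozygous rat 1. It was 0.62 without heterozygous rats 2 and 3. The member of smallest p was Cck, a neuropeptide of a class of interneurons, which measured 35.3, 33.9 and 24.7 CPM in homozygotes, against 18.0, 23.6 and 27.4 CPM in heterozygotes (0.44 ± 0.18). Dlx5, an interneuron transcription factor, measured 0.845, 0.794 and 0.767 CPM in homozygotes, against 0.52, 0.514 and 0.5 CPM in heterozygotes, and did not overlap. The glutamic acid decarboxylases Gad1 and Gad2 differed by 0.11 and 0.12, within their spread. Of 14 GABA-A receptor subunits tested, 10 were above 0 and 4 below (median 0.08). Gabrd, the extrasynaptic delta subunit, measured 44.3, 30.2 and 40.3 CPM in homozygotes, against 21.5, 26.7 and 32.2 CPM in heterozygotes (0.51 ± 0.18), and Gabre, the epsilon subunit, differed by -0.71 ± 0.30. In striatum, Penk (proenkephalin) and Ppp1r1b (the dopamine-regulated phosphatase inhibitor) had log2 fold changes of 0.36 ± 0.14 and 0.25 ± 0.11, and 9 of 11 list members were above 0. The striatal median was 0.11, turned to -0.04 without homozygous rat 2, and was -0.39 on deposited TPM (9 genes). Relative to all annotated genes it was 0.04 on counts and -0.06 on TPM.

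Immediate early genes, which neuronal activity induces rapidly, also leaned positive, with 19 of 20 above 0. Their median was 0.32 on counts, but -0.09 on deposited TPM (over 17 genes), and 0 had an unadjusted p under 0.05. Fos measured 13.0, 28.7 and 21.6 CPM in homozygotes, against 2.56, 11.8 and 26.0 CPM in heterozygotes, so heterozygous rat 1 was lowest and rat 3 among the highest. Arc and Npas4 also had their lowest value in heterozygous rat 1, at 18.0 and 3.49 CPM. The list median was 0.07 without heterozygous rat 1, 0.09 without homozygous rat 2 and 1.11 without heterozygous rats 2 and 3.

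Glial and vascular lists lay near the median of all genes. Astrocyte genes had a median of 0.01 (Aldoc 0.33 ± 0.11, Gja1 -0.22 ± 0.11), oligodendrocyte genes 0.07, microglial genes 0.11 and endothelial genes 0.05. None of these signs was stable: the astrocyte median ran from -0.07 to 0.26 over the alternatives, the oligodendrocyte median turned to -0.10 without homozygous rat 3, and the microglial and endothelial medians turned to -0.01 and -0.02 without heterozygous rat 1. The oligodendrocyte precursor and mural cell medians, 0.11 and 0.10, kept their sign over the alternative fits (0.04 to 0.19 and 0.04 to 0.18). On deposited TPM they were -0.30 and -0.34 (7 and 5 genes). Sox10, a precursor and oligodendrocyte transcription factor, differed by 0.30 ± 0.14. Among the meningeal list 2 of 11 were above 0, with a median of -0.07, which turned positive without homozygous rat 1 (0.03), without heterozygous rat 3 (0.16) and without heterozygous rats 2 and 3 (0.19).

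The remaining regional lists were described in the same way. All 8 tested olfactory bulb genes were above 0 (median 0.39, but -0.02 on deposited TPM), and their summed level was 118, 103 and 138 CPM in homozygotes, against 56.5, 115 and 89.5 CPM in heterozygotes. Most of that sum was Calb2 and Cdhr1 in every rat. Calb2, also on the GABAergic and thalamic lists, measured 71.9, 28.9 and 70.3 CPM in homozygotes, against 35.2, 47.0 and 55.5 CPM in heterozygotes. Cdhr1 measured 30.7, 55.4 and 44.3 CPM in homozygotes, against 8.76, 48.6 and 21.7 CPM in heterozygotes. Thalamic genes had a median of 0.23 on counts and -0.17 on TPM. Tcf7l2 was at the lower end, and Prkcd, a protein kinase C isoform, was at 0.45 ± 0.21. Relative to all annotated genes, the thalamic median was 0.16 on counts and 0.16 on TPM (8 genes). The olfactory bulb median was 0.33 on counts and 0.31 on TPM (5 genes) relative to the same genes. Hippocampal genes had a median of -0.01 and excitatory neuron genes one of 0.06, with Camk2a, the main postsynaptic kinase, at -0.29 ± 0.15 and Slc17a7, a vesicular glutamate transporter, at 0.22 ± 0.12. Choroid plexus genes had a median of -0.05 and antigen presentation genes one of -0.14, and both turned positive without homozygous rat 1, without heterozygous rat 3 and without heterozygous rats 2 and 3.

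Among cell-process lists, 27 of 30 nuclear genes of oxidative phosphorylation were above 0 (median 0.12, but -0.28 on deposited TPM), and 30 of 33 tested ribosomal protein genes (median 0.15, but -0.26 on TPM). Relative to all annotated genes these medians were 0.05 and 0.08 on counts and 0.04 and 0.07 on TPM. Without heterozygous rat 1 they were 0.01 and 0.03. Rpl19 measured 132, 96.2 and 129 CPM in homozygotes, against 80.2, 95.0 and 106 CPM in heterozygotes (0.35 ± 0.15). Rps16 had the lowest fold change of that family, at 36.1, 23.0 and 19.4 CPM in homozygotes, against 65.0, 87.0 and 29.4 CPM in heterozygotes. Of 18 cholesterol synthesis genes, 17 were above 0 (median 0.09, but -0.31 on TPM, which is 0.02 above all annotated genes there), including Mvd (0.49 ± 0.20). Their median was 0.03 without heterozygous rat 1 and 0.32 without heterozygous rats 2 and 3. Splicing regulators had a median of 0.01. Hnrnpa1, a splicing factor, measured 45.1, 38.6 and 46.0 CPM in homozygotes, against 60.6, 50.0 and 53.7 CPM in heterozygotes (-0.34 ± 0.13). Ethanol and aldehyde metabolism genes had a median of 0.01, with 0 called and 0 at an unadjusted p under 0.05.

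These directions depend on the scale used. On deposited TPM (transcript abundance normalised for length and depth), the median log2 ratio of 10029 annotated genes was -0.33, against 0.07 on counts for the same genes. With TPM, 12 annotated genes had all homozygotes above all heterozygotes and 1260 all below, against 1089 and 274 on CPM. Relative to the shift of all annotated genes, the GABAergic, immediate early and cerebellar lists kept a positive median on TPM (0.23, 0.23 and 0.47 above it). The 7SL loci took 30.3, 27.7 and 25.6% of TPM in homozygotes, against 23.0, 27.8 and 22.8% in heterozygotes. By length of the longest isoform, the median on counts was 0.09 for the 3754 shortest annotated genes and 0.04 for the 3754 longest.

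**Figure D4:**
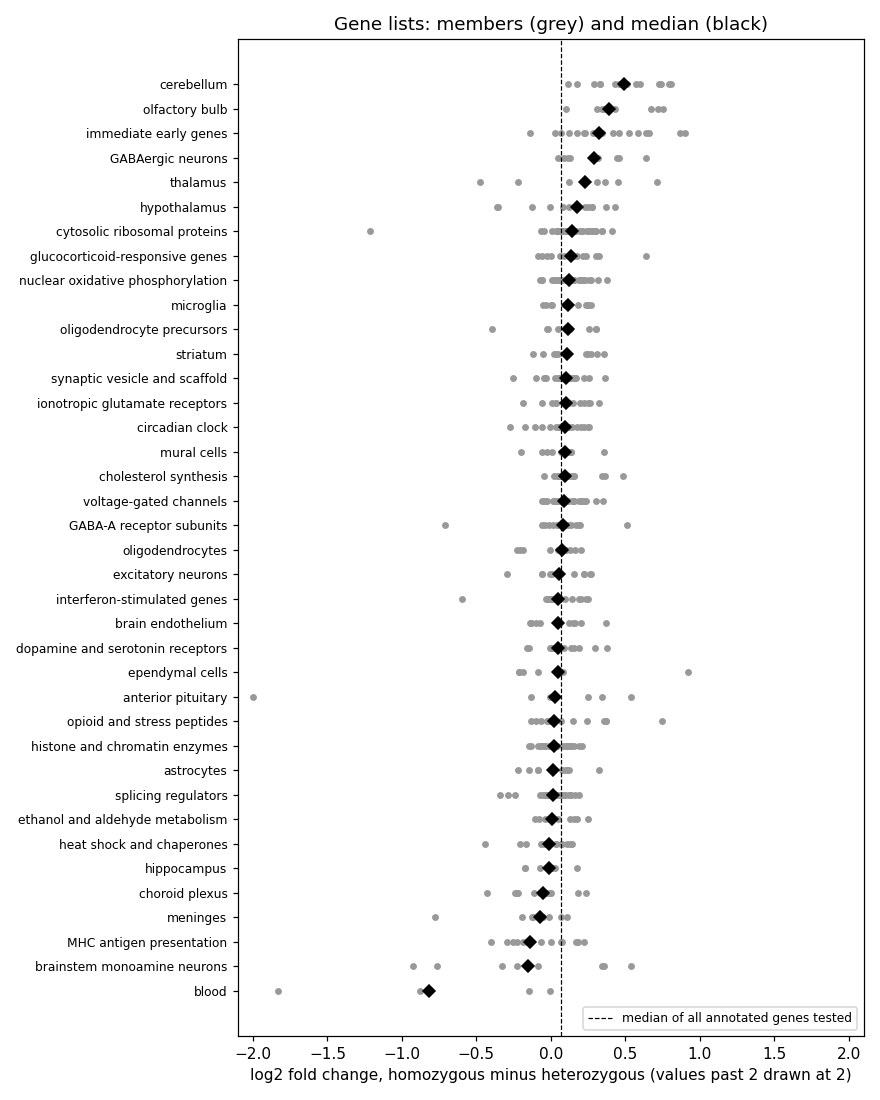
log2 fold change of list members (grey points) and list medians (black) for the lists with 5 or more tested genes, with the median of all annotated genes dashed; values beyond 2 in size are drawn at 2. Most medians lie close to the dashed line, and the blood list lies lowest at -0.82.

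Isoform usage, how a gene's output is divided among its isoforms, gave more calls than gene level. The usage test compares isoform counts, while the deposited percentages printed beside it are not shares of counts. For Lrap isoform MSTRG.24458.2 in homozygous rat 1, 5.54 of 109 locus counts went with 9.89%. Of 7955 annotated genes with 2 or more isoforms tested, 80 passed an adjusted p of 0.05 (1.01%, diffSpliceDGE with Simes p), and 93 of 9343 loci in all (0.995%). None of the 80 differed in total output by 0.5 or more on the log2 scale, 0 passed at locus level and 2 had a locus p under 0.05. Of all 15016 annotated genes tested, 0 passed and 2.88% had an unadjusted p under 0.05, so those 2 counts are not particular to the 80. The share of all annotated genes that differed by under 0.5 is not given here. Of the 80 isoforms of smallest p, 39 were lower and 41 higher in homozygotes, and 43 were at 0 counts in every rat of 1 genotype. Over all isoforms, 0 of 58768 passed (0.0%) in edgeR, 1949 had an unadjusted p under 0.05 (3.32%), and DESeq2 called 256.

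Serac1, a phospholipid remodelling protein, had the smallest p. Its isoform MSTRG.1918.7 (18 exons, chromosome 1) took 0, 0 and 0% of the locus in homozygous rats, against 23.8, 36.3 and 53.5% in heterozygous rats (adjusted p 5.06e-06). It differs from its nearest tested relative by 35 bases, and the locus total differed by -0.01 ± 0.12. Kcnh7, a voltage-gated potassium channel, had an isoform at 9.02, 11.1 and 8.03% in homozygotes, against 0, 0.01 and 0% in heterozygotes, and it differs from its nearest relative by 9 bases. Ago4, an Argonaute protein of small RNA silencing, had an isoform at 12.6, 5.49 and 10.9% in homozygotes, against 0% in all 3 heterozygotes, and this one differs by 1513 bases.

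Nat8f3, an N-acetyltransferase family member, had an isoform at 0% in all 3 homozygotes, against 5.57, 5.10 and 5.39% in heterozygotes. Dnajb5, a heat shock co-chaperone, had one at 0.03, 0 and 0% in homozygotes, against 21.9, 9.50 and 13.3% in heterozygotes, differing by 14 bases. Man2c1, a cytosolic mannosidase, had one at 3.73, 7.44 and 4.17% in homozygotes, against 0, 0 and 0.12% in heterozygotes. Fam53c and Fam188a had isoforms at 2.99 to 5.89% and 5.20 to 15.5% in homozygotes, against 0% in every heterozygote. AABR07071891.1 had an isoform at 0% in every homozygote, against 6.48 to 16.8% in heterozygotes, and AABR07021596.2 one at 2.36 to 7.58% in homozygotes, against at most 0.05% in heterozygotes. In all 10 the shares did not overlap, but the 10 were picked by smallest p in these same rats, so this is no separate support. Of the 10, 6 were called whichever rat was left out, while Ago4, Fam53c, Fam188a and AABR07071891.1 each lost the call without at least 1 rat. None of the 10 passed in limma's diffSplice (adjusted p 0.102 to 0.667).

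**Figure D5:**
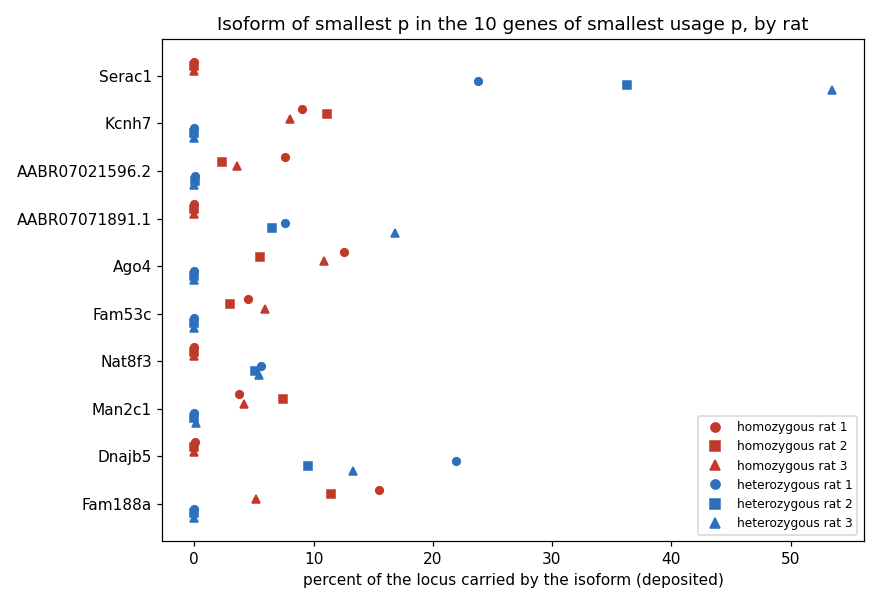
Deposited percentage of the locus carried by the isoform of smallest p in the 10 annotated genes of smallest usage p, by rat, homozygous (red) above heterozygous (blue). In each gene the genotype with the lower share sits at or near 0%, and the other between 2.36 and 53.5%.

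All-or-none isoforms were also frequent between rats of the same genotype. Of 32500 isoforms at loci with 2 or more, 3096 were at 0 in 1 homozygous rat and at 20 or more counts in another, and 2614 were so among heterozygous rats. Between genotypes, 51 were at 0 in all homozygotes and at 20 or more counts in every heterozygote, and 25 were the reverse. The sizes of these counts cannot be compared. Those within a genotype need only 1 rat at 0 and another at 20 or more. Those between genotypes need every rat to meet the condition. The isoforms that led the 80 genes differed from their nearest relative by a median of 229.5 bases, against 922 over all tested isoforms, and 25.0% of them by 100 bases or fewer, against 12.5% of all. With limma's diffSplice, 3 of the 80 were called, and 18 of the 80 were called whichever rat was left out.

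Of the 3 shared with limma, Trak1 and Sgms1 are described, named here after their values were seen. Trak1, a motor adaptor for mitochondrial transport, had an isoform at 5.21, 8.77 and 4.12% in homozygotes, against 1.08, 0.67 and 1.11% in heterozygotes. Sgms1, a sphingomyelin synthase, had one at 7.90, 11.5 and 10.5% in homozygotes, against 3.17, 1.5 and 3.77% in heterozygotes. Both isoforms were present in every rat, and all homozygotes were above all heterozygotes in each. Trak1 was called whichever rat was left out, and Sgms1 lost the call without heterozygous rat 2.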

How the data were processed

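Whole-brain RNA was rRNA-depleted with Ribo-Zero and made into stranded libraries, per the labels' protocols. Tools were cutadapt, HISAT2, StringTie and RSEM on rn6, per the submitters' processing notes. Strand use in counting is not stated there. For loci and isoforms alike, the deposited counts are RSEM expected counts. The authors also deposited TPM (length- and depth-normalised) and the percent of each locus carried by each isoform. An annotated gene is a locus with a same-strand gene name in the deposited assembly; 7842 of 15016 tested overlap a locus on the other strand. Expected counts were rounded, filtered with filterByExpr, TMM-scaled and fitted over the 6 libraries with edgeR 4.0.16 (R 4.3.3, quasi-likelihood, robust), with Benjamini-Hochberg adjustment over all loci, and isoform usage with diffSpliceDGE. The 99 spike-in loci stayed out. Depth ran from 27489383 to 46975919 counts. Genes were named by rule: Lrap; the 12 of smallest p in each direction; the 6 nearest Lrap; leading list members and first markers; 10 isoforms and usage genes of smallest p. Other named list members were chosen after their values were seen. The members and lists were chosen with earlier results of these data known. Alternatives covered scaling, filters, DESeq2, limma-voom, the replicate number and leaving out rats. Only the edgeR gene, isoform and usage fits were tested on simulated data, which gave all features of a fit the same rat-to-rat spread. Labels give separate rats, but not litters. A further isoform usage result is not reported here.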

Additional observations from a re-analysis of the deposited data

Results flagged for a closer look

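The spike-in counts, which no comparison used, differed between the genotypes. The most abundant spike-in sequence averaged 8.37% of spike-in counts in homozygotes and 28.2% in heterozygotes, a signal outside the main measurement. Of 41 spike-in sequences with 100 or more counts in every library, 23 were higher in all homozygotes than in all heterozygotes and 9 lower, with log2 differences from -2.17 to 1.11. Among wild-type libraries, number 2 resembled the homozygotes (8.76%), and numbers 1 and 3 the heterozygotes (28.1% and 28.9%). The sources used here do not name the spike-in mixture of each library.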

How the results depend on the processing

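Called loci numbered 2 in the fit reported, 1 with all 9 libraries, 4 without the count filter, 12 with DESeq2, 4 with limma-voom, 0 over named loci alone, and 2 to 20 with a rat left out (20 without heterozygous rat 1). Annotated genes called numbered 0, 1 without the filter, 8 with DESeq2, 1 with limma-voom, 1 without heterozygous rats 2 and 3, and 0 to 13 with a rat left out. Annotated genes at an unadjusted p under 0.05 numbered 432, 130 with all 9 libraries, 1236 without heterozygous rats 2 and 3, and 231 to 755 with a rat left out. Isoforms called numbered 0, 19 without the filter, 256 with DESeq2 and 0 to 3 with a rat left out. Usage calls numbered 93 loci (80 annotated), 56 (50) with all 9 libraries, 5 (4) with limma, and 63 to 179 (56 to 158) with a rat left out. Deviations of same-numbered rats correlated at 0.043, -0.006 and 0.161, against -0.182 to 0.128 for other pairings. With 3 rats a genotype, these values cannot decide whether the numbers mark a shared litter or batch. With the replicate block, 6 loci, 3 annotated genes, 37 usage loci and 34 annotated usage genes were called. The Lrap locus ran from -0.20 to 0.06 with a rat left out, turning to 0.063 without homozygous rat 2. Morn3 turned to 0.17 without heterozygous rats 2 and 3, and Tmem120b to -0.03, -0.08, -0.10 and -0.02 without homozygous rats 1 and 3 and heterozygous rats 1 and 2. Non-overlapping genes numbered 1089 higher and 274 lower on CPM, 12 and 1260 on TPM. The causes were not tested. Homozygous MSTRG.24458.2 rests on 5.54 to 16.6 counts a rat.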
